A study of Homo sapiens with 12 samples.

Results

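SPP1 codes for osteopontin, a secreted, phosphorylated matrix glycoprotein, and 9 further genes code for the cell surface proteins that osteopontin is known to bind. They are CD44, the beta subunits ITGB1, ITGB3 and ITGB5, and the alpha subunits ITGAV, ITGA4, ITGA5, ITGA8 and ITGA9 of the integrins. The 10 genes were taken by symbol from a table of 58735 Ensembl gene IDs, each matched 1 row, and all 10 were among the 18415 genes tested, those averaging 5 or more counts per library. Their mean counts per library ran from 236 for ITGA4 to 11349 for ITGB1, and the lowest count of any of them in any library was 79, for ITGA8.

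RNA was sequenced from SW872 cells, an established human liposarcoma line, made to express stably either TAZ-CAMTA1 (TC) or YAP-TFE3 (YT). These fusion proteins join the TEAD-binding end of TAZ or YAP to the activating end of CAMTA1 or TFE3 and are known drivers of epithelioid hemangioendothelioma, a vascular sarcoma. Each line carried a stable hairpin that was non-targeting (shNT) or was directed at YEATS2 or ZZZ3, subunits of the histone-acetylating ATAC complex, which gave 6 groups of 2 libraries. No library came from SW872 cells without a fusion, so the groups show knock-down within a fusion line and 1 fusion line against the other, not the effect of a fusion.

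Osteopontin carries the tripeptide Arg-Gly-Asp (RGD), through which integrins alpha-v beta-3, alpha-v beta-5, alpha-v beta-1, alpha-5 beta-1 and alpha-8 beta-1 bind it. A neighbouring motif, exposed when thrombin cuts the protein, is read by alpha-4 beta-1 and alpha-9 beta-1. CD44, best known as the receptor of hyaluronan, is a further receptor, and osteopontin is best known from bone, macrophages and the matrix of many tumours.

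The coding bases of the RGD site are shown because the site joins the ligand to its receptors. They lie at chr4:87981733-87981762 on the + strand of GRCh38, in exon 6 of 7 of the transcript ENST00000395080.8. The 3 RGD codons, in capitals, begin at residue 159 of 314. The next 7 codons, which follow, hold the motif of alpha-4 and alpha-9.
SPP1 RGD site: CGAGGTGATagtgtggtttatggactgagg

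Total counts were between 17451893 and 29294805 per library. YEATS2 was at 113 to 123 CPM (counts scaled to a common library size by TMM, the trimmed mean of M-values) in TC shNT against 35.1 to 45.5 in TC shYEATS2, and at 115 to 117 in YT shNT against 33.9 to 38.5 in YT shYEATS2. ZZZ3 was at 25.6 and 60.4 CPM in TC shNT against 21.9 and 22.7 in TC shZZZ3, and at 49.1 and 71.2 in YT shNT against 12.6 and 29.6 in YT shZZZ3. The YT shYEATS2 libraries were also below both YT controls in ZZZ3, at 30.7 to 31.4 CPM, so in that group the levels of both targets were lower and their parts cannot be told apart. The TC controls thus differed more from each other in ZZZ3 than the lower of them differed from the knock-down libraries. The mesenchymal marker VIM was at 696 to 2152 CPM in all libraries. Of the adipocyte markers that would mark a fat cell, ADIPOQ reached 1 count and FABP4 7 counts at most, while PPARG (36.8 to 109 CPM) and LPL (73.3 to 286 CPM) were present. Of 5 macrophage markers, the cells best known for osteopontin, PTPRC reached at most 3 counts, CD68 and CD163 1 count and CSF1R 18 counts. CD14, the highest of the 5, reached 93 counts, at 0.603 to 4.13 CPM. The summed level of all 5 was 0.920 to 4.49 CPM, highest in the YT shYEATS2 libraries, where SPP1 was low. Epithelial and skeletal muscle markers summed to at most 2.32 and 2.93 CPM.

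Over the 10 genes, SPP1 was the member called in most knock-down comparisons, 3 of 4. It fell in TC shZZZ3, YT shYEATS2 and YT shZZZ3, CD44 rose in TC shZZZ3 and YT shYEATS2, ITGB3 fell in YT shYEATS2, and ITGA8 and ITGA9 rose in YT shZZZ3. ITGAV, ITGB1, ITGB5, ITGA4 and ITGA5 were called in 0 of 4. Called here means an adjusted p under 0.05 in the edgeR quasi-likelihood test over all 18415 genes.

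The counts of called members are read against the share of all genes called. In TC shYEATS2, 0 of 10 members were called, against 0.0434% of all genes. With an unadjusted p under 0.05 there were 927 genes and 0 members, and DESeq2 called 117 genes and 0 members. In TC shZZZ3, 2 of 10 were called (1 higher, 1 lower) against 1.53% of all genes. In YT shYEATS2, 3 of 10 were called (1 higher, 2 lower) against 20.7%, a share close to that of all genes. In YT shZZZ3 the count was 3 of 10 (2 higher, 1 lower) against 10%, and in YT shNT against TC shNT it was 5 of 10 (3 higher, 2 lower) against 9.23%. These counts moved with the model: with the trend of counts on GC content removed, 6 members were called in YT shYEATS2 (against 31.7% of all genes) and 7 in YT shZZZ3 (against 21.4%). Fits to the compared groups alone gave 9 in YT shYEATS2 (against 48.6%), 5 in YT shZZZ3 (7.61%), 1 in TC shZZZ3 (0.848%) and 3 between the fusion lines (5.45%).

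**Figure D1:**
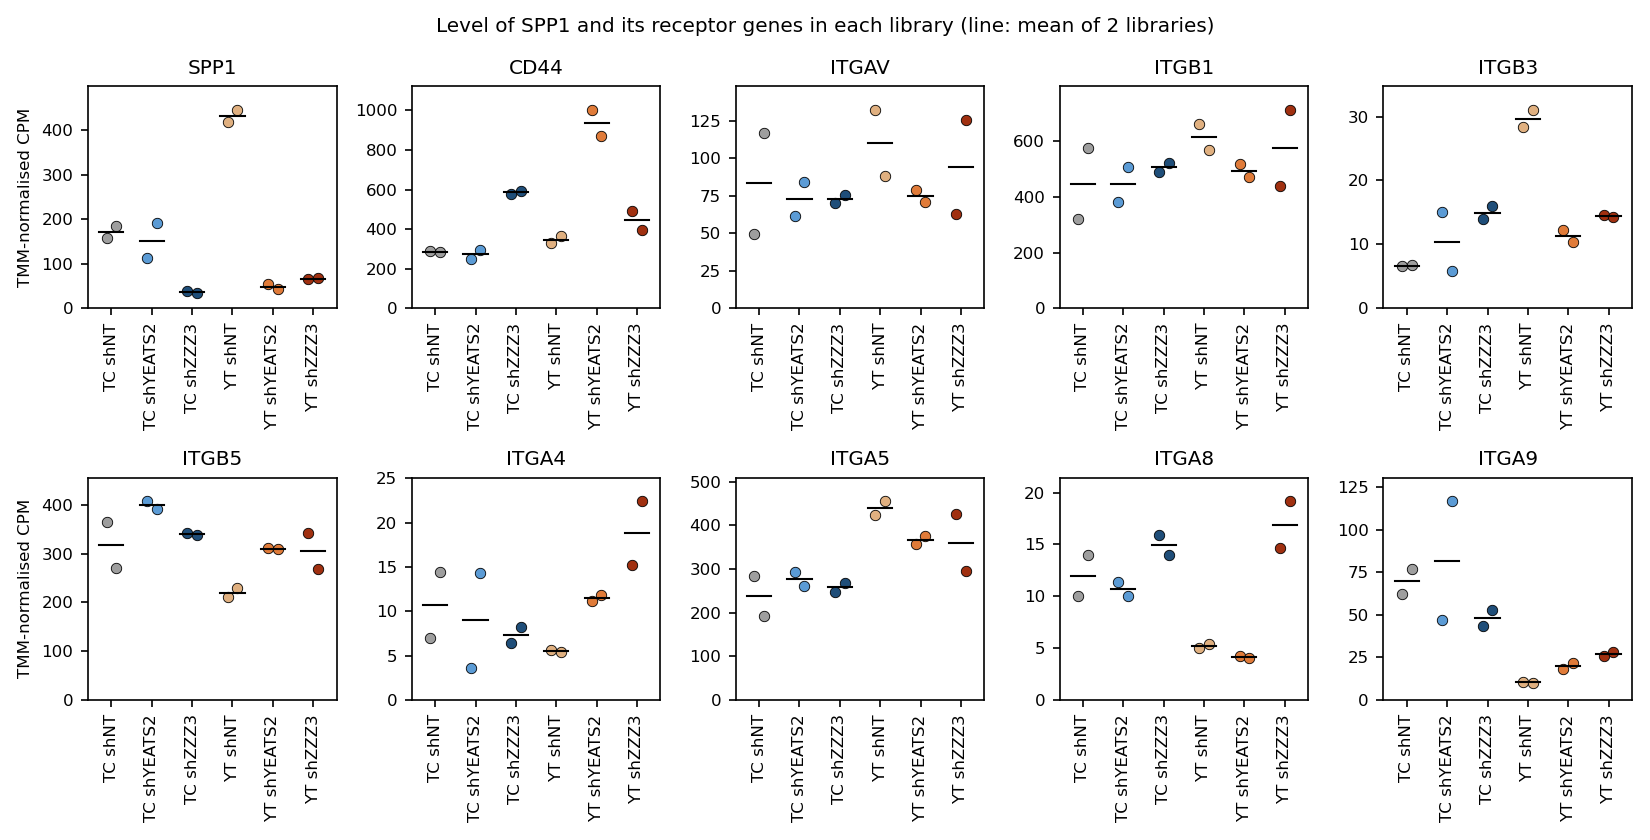
TMM-normalised CPM (linear axes from 0) of each of the 10 genes in the 12 libraries, with points for libraries and a line for the mean of each pair. SPP1 stands at 418 and 446 CPM in YT shNT and between 35.2 and 68.8 CPM in the 6 libraries of TC shZZZ3, YT shYEATS2 and YT shZZZ3, while CD44 is highest in YT shYEATS2.

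The ligand. SPP1 (ENSG00000118785, chromosome 4, 87975667 to 87983532, + strand) was at 159 and 184 CPM in the TC shNT libraries and at 418 and 446 CPM in the YT shNT libraries. With the ZZZ3 hairpin it was at 39.7 and 35.2 CPM in TC and at 64.9 and 68.8 CPM in YT. With YEATS2 knocked down it was at 112 and 191 CPM in TC and at 54.5 and 43.0 CPM in YT. All knock-down libraries other than the TC shYEATS2 pair were therefore below all control libraries, whereas the TC shYEATS2 pair overlapped its control.

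In the order of group means SPP1 ran from YT shNT (432 ± 19.5 CPM, SD, n = 2) through TC shNT (171 ± 18.1) and TC shYEATS2 (152 ± 56.1) to YT shZZZ3 (66.9 ± 2.75), YT shYEATS2 (48.8 ± 8.16) and TC shZZZ3 (37.4 ± 3.15). The highest group stood 11.5-fold above the lowest. TC shNT and TC shYEATS2 are the only neighbours in this order whose libraries overlapped, and the differences among the 3 lowest groups were not tested.

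With the ZZZ3 hairpin SPP1 fell 4.57-fold in TC (log2 -2.19, SE 0.238, edgeR adjusted p 0.00152). ZZZ3 itself was at 25.6 CPM in the lower TC control against 21.9 and 22.7 in TC shZZZ3. Loss of ZZZ3 and other effects of the hairpin therefore cannot be told apart there. In YT the fall was 8.84-fold with shYEATS2 (log2 -3.14, SE 0.237, edgeR adjusted p 2.54e-05) and 6.45-fold with shZZZ3 (log2 -2.69, SE 0.236, edgeR adjusted p 0.000263). In TC shYEATS2 the difference was -0.18 (95% interval -0.69 to 0.34, edgeR adjusted p 1), so that a fall as large as in the other 3 comparisons lies outside its interval. In bulk RNA a lower level in each cell and fewer cells that make the RNA cannot be told apart. The study singled SPP1 out from these same libraries as a lowered matrix gene, so its direction here is not independent evidence. The study also reports a check of SPP1 by qRT-PCR, whose values are not used here. The summed level of the 6 adipocyte markers was also lower where SPP1 fell, at 123 to 130 CPM in TC shZZZ3 against 187 to 225 in TC shNT, and at 160 to 168 in YT shYEATS2 and 133 to 171 in YT shZZZ3 against 229 to 235 in YT shNT. In TC shYEATS2, where SPP1 overlapped its controls, the sum was above them, at 254 to 344 CPM. Of the 6, only LPL and PPARG exceeded 3.75 CPM in any library, so the sum is mostly of these genes. The part of this sum in the result was not tested.

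The effect of the YEATS2 hairpin on SPP1 differed between the fusion lines, with an interaction (YT minus TC) of -2.97 (SE 0.334, edgeR adjusted p 0.000403). The interaction of the ZZZ3 hairpin was -0.50 (95% interval -1.23 to 0.24, edgeR adjusted p 0.521). With the non-targeting hairpin the YT level of SPP1 was 2.52-fold the TC level (log2 1.33, SE 0.235, edgeR adjusted p 0.00562). This last difference was 1.25 with an adjusted p of 0.0602 when YT shNT replicate 2 was left out, and 0.93 (adjusted p 0.0374) when the trend on the GC content of all annotated exons was removed. The falls kept their call under every alternative run.

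CD44. The receptor gene CD44 (ENSG00000026508, chromosome 11, 35138882 to 35232402, + strand) was at 290 and 283 CPM in TC shNT, at 250 and 297 in TC shYEATS2 and at 577 and 595 in TC shZZZ3. In YT it was at 330 and 365 CPM with shNT, at 1003 and 867.9 with shYEATS2 and at 491 and 397 with shZZZ3. Its highest group, YT shYEATS2, was thus the group where SPP1 had fallen furthest from its control, and its 2 lowest groups, TC shNT and TC shYEATS2, overlapped.

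CD44 rose 2.69-fold in YT shYEATS2 (log2 1.43, SE 0.181, edgeR adjusted p 0.000346) and 2.05-fold in TC shZZZ3 (log2 1.03, SE 0.181, edgeR adjusted p 0.0164). In YT shZZZ3 both libraries lay above both controls, at a log2 difference of 0.36 (95% interval -0.04 to 0.75) that was not called (edgeR adjusted p 0.256). The TC shYEATS2 difference was -0.07 (95% interval -0.46 to 0.33). The interaction of the YEATS2 hairpin was 1.50 (SE 0.255, edgeR adjusted p 0.00386). The rise in TC shZZZ3 needed all 4 libraries: with any 1 of them left out its value was 0.99 to 1.05 and its adjusted p 0.0514 to 0.167, and a fit to both groups alone gave an adjusted p of 0.110. The summed mesenchymal markers were at 1228 to 1282 CPM in YT shNT, 2271 to 2305 in YT shYEATS2 and 1832 to 2585 in YT shZZZ3. In TC they were at 1604.5 to 2098 CPM with shNT, 1572 to 1726 with shYEATS2 and 1933 to 1941 with shZZZ3. The TC shZZZ3 sum thus lay within the range of its controls, while CD44 was above them. VIM alone was at 696 to 2152 CPM over all libraries. The part of these markers in the CD44 levels was not tested. Counts per gene do not separate the splice forms of CD44, which differ in how they bind ligands.

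**Figure D2:**
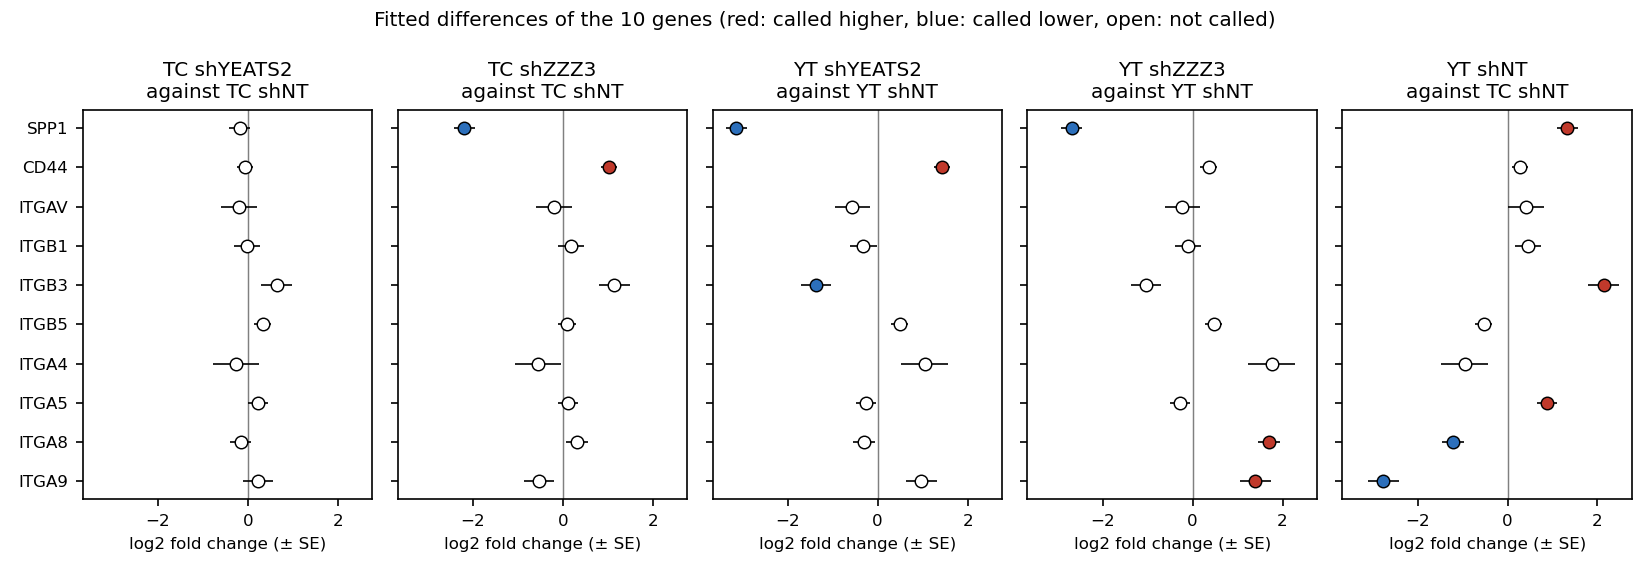
Log2 fold change (± SE from the edgeR fit) of the 10 genes in the 4 knock-down comparisons and between the control libraries of both fusion lines, with called genes filled in red (higher) or blue (lower). SPP1 lies at -2.19, -3.14 and -2.69 in 3 of the knock-down panels and at -0.18 in TC shYEATS2, where all 10 points are open.

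The beta subunits. ITGB3 (ENSG00000259207, chromosome 17, 47253827 to 47313743, + strand), the beta chain of the alpha-v beta-3 receptor, was at 6.64 and 6.74 CPM in TC shNT and at 28.3 and 31.1 CPM in YT shNT. It was at 12.3 and 10.4 CPM in YT shYEATS2, at 14.6 and 14.3 CPM in YT shZZZ3 and at 14.0 and 15.9 CPM in TC shZZZ3. The TC shYEATS2 libraries, at 15.0 and 5.83 CPM, stood 2.58-fold apart. The 4 YT knock-down libraries were all below the YT controls, and the TC shZZZ3 libraries were above the TC controls.

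The difference of ITGB3 between the fusion lines was 4.39-fold (log2 2.14, SE 0.341, edgeR adjusted p 0.00337). It fell 2.59-fold in YT shYEATS2 (log2 -1.38, SE 0.337, edgeR adjusted p 0.0156), a call that was lost with any 1 of the 4 libraries left out (values -1.49 to -1.26, adjusted p 0.0675 to 0.132). In YT shZZZ3 it was at -1.03 (edgeR adjusted p 0.0795; DESeq2 adjusted p 0.0278) and in TC shZZZ3 at 1.15 (edgeR adjusted p 0.168; DESeq2 adjusted p 0.0385), so in these comparisons the call depended on the tool, and in YT shZZZ3 the GC trend removed (adjusted p 0.0291) and a fit to both groups alone (0.0338) also gave a call. Both interactions were called, at -2.02 (SE 0.482, edgeR adjusted p 0.0229) for the YEATS2 hairpin and -2.18 (SE 0.479, edgeR adjusted p 0.0266) for the ZZZ3 hairpin. ITGB3 shares 2266 exonic bases on the same strand with a gene annotated as ENSG00000259753, which had 0 counts in all libraries.

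ITGB1 (ENSG00000150093), the beta chain that pairs with most alpha subunits here, and ITGB5 (ENSG00000082781), of the alpha-v beta-5 receptor, were the abundant beta chains. ITGB1 was at 321 and 575 CPM in TC shNT, at 380 and 509 in TC shYEATS2 and at 491 and 523 in TC shZZZ3. In YT its libraries were at 663 and 568 CPM with shNT, 517 and 471 with shYEATS2 and 440.1 and 713 with shZZZ3. The TC shNT pair enclosed all 4 TC knock-down libraries and the YT shZZZ3 pair enclosed both YT controls. No ITGB1 difference was called, with log2 fold changes from -0.32 to 0.46 over the 5 comparisons, although the -0.32 of YT shYEATS2 passed in a fit to both groups alone (adjusted p 0.0231).

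ITGB5 was at 366 and 271 CPM in TC shNT, at 408 and 391 in TC shYEATS2 and at 342 and 338 in TC shZZZ3. In YT it was at 211 and 229 CPM with shNT, at 311 and 309.5 with shYEATS2 and at 342 and 268 with shZZZ3. All 4 YT knock-down libraries were above the YT controls, at log2 differences of 0.50 (edgeR adjusted p 0.0871) and 0.47 (edgeR adjusted p 0.151) that were not called. With the GC trend removed they were 0.31 (adjusted p 0.0337) and 0.37 (adjusted p 0.0209).

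The alpha subunits. ITGA9 (ENSG00000144668, chromosome 3, 37452115 to 37823507, + strand), which reads the thrombin-exposed motif, had the widest range after SPP1, 8.03-fold between group means. It was at 62.2 and 77.1 CPM in TC shNT, at 47.0 and 117 in TC shYEATS2 and at 43.5 and 53.1 in TC shZZZ3. In YT it was at 10.5 and 9.95 CPM with shNT, at 18.2 and 21.9 with shYEATS2 and at 25.9 and 28.04 with shZZZ3. Every TC library was above every YT library, and within YT both knock-downs were above the control.

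Between the control lines ITGA9 was 6.78-fold lower in YT (log2 -2.76, SE 0.340, edgeR adjusted p 0.000900). It rose 2.63-fold in YT shZZZ3 (log2 1.40, SE 0.342, edgeR adjusted p 0.0260), with an adjusted p of 0.0524 to 0.169 when any 1 of the 4 libraries was left out. In YT shYEATS2 it was at 0.97 (edgeR adjusted p 0.0678; DESeq2 adjusted p 0.0274). The interaction of the ZZZ3 hairpin was 1.92 (SE 0.475, edgeR adjusted p 0.0453). ITGA9-AS1, on the opposite strand, shares 763 exonic bases with ITGA9 and had 670 counts in all against 11580, and the handling of strand in the counting is not given in the sources used here.

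ITGA8 (ENSG00000077943, chromosome 10, 15513954 to 15719922, - strand), an RGD-binding partner of ITGB1, was at 9.99 and 14.0 CPM in TC shNT and at 4.96 and 5.35 CPM in YT shNT. It was at 14.7 and 19.2 CPM in YT shZZZ3 and at 4.25 and 4.08 CPM in YT shYEATS2. In TC it was at 11.4 and 9.99 CPM with shYEATS2 and at 15.9 and 13.95 CPM with shZZZ3. The YT shZZZ3 libraries were thus above the other 4 YT libraries and reached the TC levels.

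ITGA8 rose 3.24-fold in YT shZZZ3 (log2 1.70, SE 0.244, edgeR adjusted p 0.00165) and was at -0.30 in YT shYEATS2 (95% interval -0.86 to 0.25). Between the control lines it was 2.30-fold lower in YT (log2 -1.20, SE 0.245, edgeR adjusted p 0.0103). That last call was lost without either YT shNT library (adjusted p 0.118 and 0.0877) and when the control groups were fitted alone (adjusted p 0.0609). Its interaction of the ZZZ3 hairpin was 1.38 (SE 0.340, edgeR adjusted p 0.0417). The summed level of the 4 endothelial markers moved with ITGA8 in YT, at 137 to 139 CPM in YT shZZZ3 against 40.5 to 42.3 in YT shNT and 31.7 to 33.6 in YT shYEATS2. In YT shYEATS2 this sum was thus below its controls, while ITGA9 was above its own. In TC shNT, where ITGA9 was higher than in any YT library, the sum was 65.4 to 74.4 CPM. The part of these markers in the rises of ITGA8 and ITGA9 was not tested.

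ITGA5 (ENSG00000161638, chromosome 12, 54395261 to 54419266, - strand), the alpha chain of the fibronectin receptor, was at 283 and 191 CPM in TC shNT and at 423 and 455 CPM in YT shNT. Both YT controls lay above both TC controls, a 1.85-fold difference (log2 0.89, SE 0.224, edgeR adjusted p 0.0321). Without TC shNT replicate 2 it was 0.60 (adjusted p 0.0752), and leaving out either YT shNT library or fitting the control groups alone also ended the call. In the knock-downs ITGA5 ranged from 248 to 294 CPM in TC and from 295 to 425 CPM in YT and was not called. With the GC trend removed it passed in both YT knock-downs, where its log2 difference went from -0.26 to -0.49 (adjusted p 0.00506) for shYEATS2 and from -0.29 to -0.43 (adjusted p 0.0160) for shZZZ3.

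ITGAV (ENSG00000138448), the alpha chain shared by the alpha-v receptors, was at 49.2 and 117 CPM in TC shNT, a 2.38-fold gap within 1 pair. The TC shYEATS2 libraries were at 61.6 and 83.9 CPM and those of TC shZZZ3 at 70.1 and 75.4. In YT the controls were at 132 and 88.4 CPM, with 78.8 and 70.8 for shYEATS2 and 63.0 and 126 for shZZZ3. No ITGAV difference was called over all 6 groups, a fit to both groups alone gave an adjusted p of 0.0367 in YT shYEATS2, and the 95% intervals were wide, from -1.42 to 0.30 in YT shYEATS2 for example.

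ITGA4 (ENSG00000115232), which with ITGB1 also binds VCAM1 and fibronectin, was among the lowest members. It was at 5.65 and 5.35 CPM in YT shNT, at 11.1 and 11.9 in YT shYEATS2 and at 15.2 and 22.4 in YT shZZZ3, so that both YT knock-downs lay above the control. The log2 differences were 1.05 (edgeR adjusted p 0.174) and 1.76 (edgeR adjusted p 0.0568) and were not called. With the GC trend removed both passed, at 1.45 (adjusted p 0.0216) and 1.90 (adjusted p 0.00792), as they did without a count filter and in fits to the compared groups alone. DESeq2 called only the second (adjusted p 0.00511), and neither passed with any 1 library left out. In TC the pairs stood far apart, at 7.02 and 14.5 CPM with shNT and 3.63 and 14.3 with shYEATS2.

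The makeup of the receptor RNA was compared per length, as CPM per kilobase of the canonical transcript. Of the summed level of the 5 alpha subunits, ITGA5 took 59.4% to 87.4% in every library. ITGA9 took 9.41% and 13.0% in TC shNT against 1.03% and 1.10% in YT shNT, and 2.32% to 3.68% in the YT knock-downs. ITGAV took 7.66% to 21.96%, and ITGA4 and ITGA8 each at most 3.41%.

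Of the summed level of the 3 beta subunits, ITGB1 took 50.7% to 77.2%, ITGB5 20.7% to 48.6% and ITGB3 0.435% to 2.50%. The ITGB3 share was 2.07% and 2.50% in YT shNT and at most 1.29% in every other library. On the same scale SPP1 was at 277 ± 12.5 CPM per kilobase (SD, n = 2) in YT shNT, above every integrin subunit in that group, and at 23.99 ± 2.02 in TC shZZZ3, below ITGB1 (136 ± 6.11), ITGB5 (76.6 ± 0.550) and ITGA5 (60.7 ± 3.22). These shares are of RNA and say nothing of the pairs formed by the proteins.

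**Figure D3:**
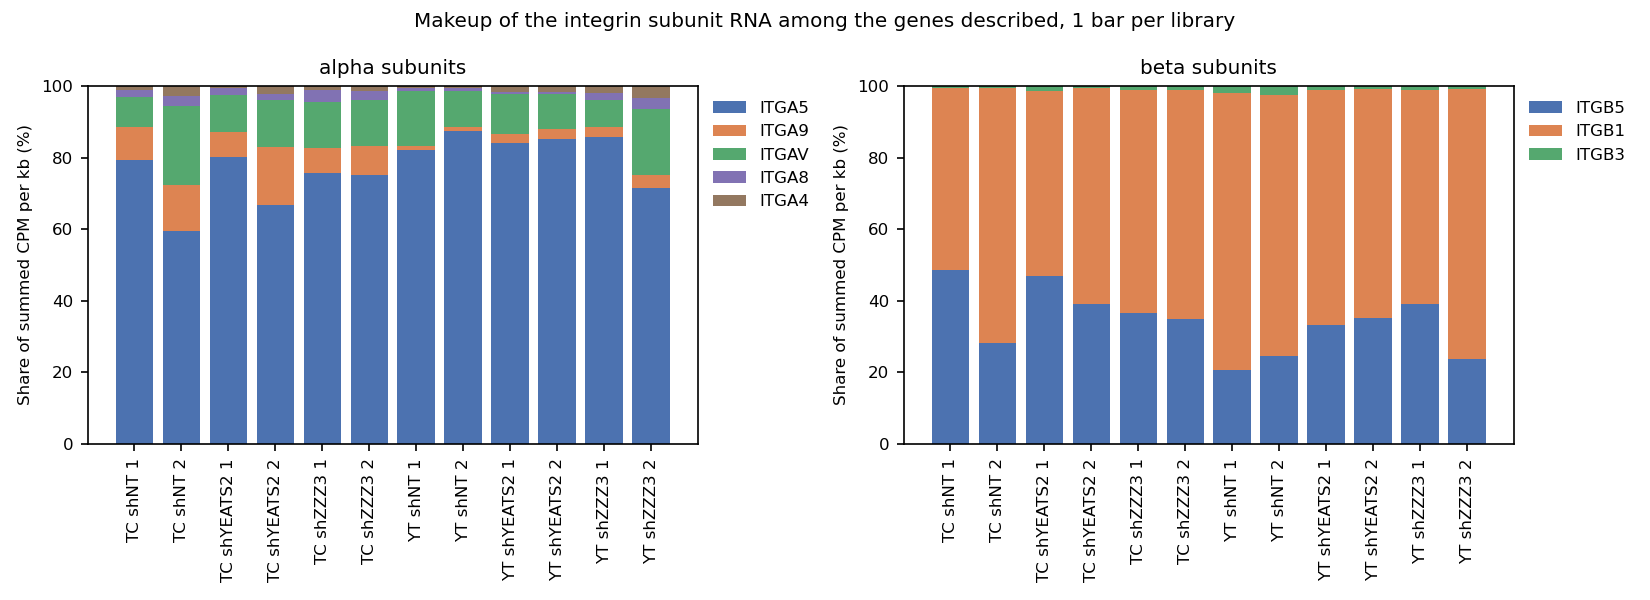
Share (%) of each gene in the summed CPM per kilobase of the 5 alpha subunits (left) and the 3 beta subunits (right), with 1 stacked bar per library. ITGA5 and ITGB1 take most of their bars, and the ITGA9 band narrows from 9.41% and 13.0% in TC shNT to 1.03% and 1.10% in YT shNT.

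The spread within pairs differed between the groups, and in TC shNT and YT shZZZ3 it ran with base composition. Across 13232 genes averaging 50 or more counts, the log2 difference between replicate 2 and replicate 1 correlated with the GC content of the canonical transcript at r = -0.81 in TC shNT and r = -0.71 in YT shZZZ3, given as a description over genes, which are not independent. In the other 4 groups r lay between -0.29 and 0.38. The members run from 38.3% GC (ITGAV) to 58.0% (ITGA5), and SPP1 is at 41.1%, or 36.6% over all its annotated exons.

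In TC shNT the difference within the pair was 1.25 for ITGAV, 1.04 for ITGA4 and 0.84 for ITGB1, the members lowest in GC, and -0.43 for ITGB5 and -0.57 for ITGA5, the highest. For SPP1 and CD44 it was 0.22 and -0.03. A pair as far apart as that of ITGAV leaves its comparisons undecided at this number of libraries, whereas the SPP1 falls are several times the gap within any SPP1 pair, the largest being 0.77 in TC shYEATS2. The TC shYEATS2 pair differed most at ITGA4 (1.95), ITGB3 (-1.35) and ITGA9 (1.31). In that pair the summed endothelial markers were also far apart, at 46.8 and 245 CPM, and their part in the member differences was not tested.

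**Figure D4:**
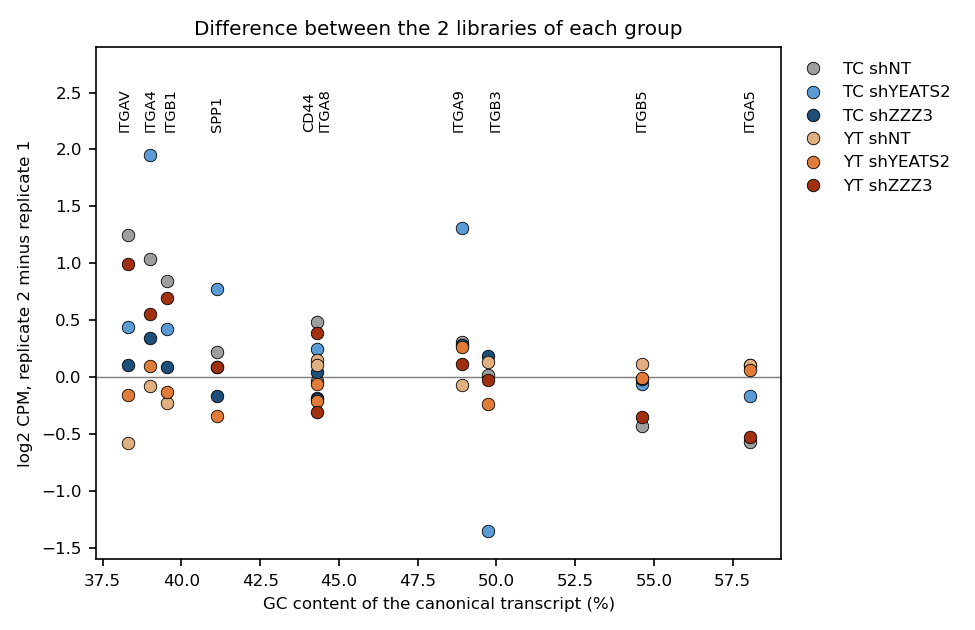
Log2 CPM of replicate 2 minus replicate 1 for the 10 genes in each group, against the GC content (%) of the canonical transcript. The TC shNT and YT shZZZ3 points run from 1.25 and 0.99 at ITGAV, the lowest in GC, to -0.57 and -0.53 at ITGA5, the highest, whereas the TC shYEATS2 points of ITGA4, ITGA9 and ITGB3 stand apart from that trend.

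The promoters of SPP1 and ITGA5, both higher in YT than in TC controls, are shown as a description of their letters. Of these promoters, only that of ITGA5 holds a match. Both fusions, TC and YT, act through TEAD factors, and the part of a match in the difference between the lines was not tested. The sequences are RefSeq's for GRCh38.p14, from 250 bases before to 50 after the start site, in the direction of the gene, at chr4:87975464-87975763 (+ strand) and chr12:54419217-54419516 (- strand). Capitals mark matches on either strand to GGAATG, the core letters bound by TEAD, and to TGANTCA, the AP-1 site.
SPP1: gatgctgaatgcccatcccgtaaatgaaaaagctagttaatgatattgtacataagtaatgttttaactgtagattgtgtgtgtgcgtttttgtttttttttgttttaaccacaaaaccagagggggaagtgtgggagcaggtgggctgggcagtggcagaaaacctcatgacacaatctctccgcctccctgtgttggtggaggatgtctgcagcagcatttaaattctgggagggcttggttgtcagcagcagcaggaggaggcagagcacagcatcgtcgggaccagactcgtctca
ITGA5: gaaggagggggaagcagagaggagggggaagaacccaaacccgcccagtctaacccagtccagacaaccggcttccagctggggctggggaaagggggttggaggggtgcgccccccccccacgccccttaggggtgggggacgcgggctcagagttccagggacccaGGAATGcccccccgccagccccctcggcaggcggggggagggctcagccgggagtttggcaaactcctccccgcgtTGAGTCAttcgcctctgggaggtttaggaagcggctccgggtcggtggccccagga

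The ITGA5 promoter held GGAATG with its first base at position -82 from the start site and TGAGTCA at position -6. ITGB1 had 1 match, GGAATG at position -182 of the first of its 2 promoters. Promoters of 8 of the 10 members, all but ITGB3 and ITGA9, were in the table, and no other match was found in them. Searched too were CACGTG and CATGTG, E-boxes of the kind bound by TFE3 and its relatives, on both strands. Of all 35116 promoters of this length, 14.0% held the TEAD letters, 17.6% an E-box and 7.71% the AP-1 site. A match describes letters only, and its absence from so short a window says nothing of binding at a distance.

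The tested genes nearest to SPP1 on chromosome 4 were read beside it, chosen by position after values of these data were known. PKD2, whose start lies 24.1 kb to its right, was not called in any comparison. HSP90AB3P, 81.7 kb to its left, was not called either, but its mean of 5.83 counts per library is too low for that to show much. ABCG2, 107 kb to the right, fell in YT shYEATS2 (log2 -1.23, edgeR adjusted p 0.0131), and SPARCL1, a matrix protein gene 445 kb to the left, fell in YT shYEATS2 (log2 -2.66, edgeR adjusted p 0.000195) and in TC shZZZ3 (log2 -1.69, edgeR adjusted p 0.0161). The ABCG2 call was lost with any 1 of its 4 libraries left out (adjusted p 0.0579 to 0.119), and the SPARCL1 call in TC without TC shNT replicate 2 or either TC shZZZ3 library (adjusted p 0.0663 to 0.201). The relatives of osteopontin with which it forms a family of bone and tooth matrix proteins, IBSP, DMP1, DSPP and MEPE, had means of at most 1.5 counts per library and were not tested.

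Other ligands of the same receptors did not move together. Of 13 tested, 1 rose and 2 fell in TC shZZZ3, 3 rose and 2 fell in YT shYEATS2, and 1 rose and 2 fell in YT shZZZ3. The shares of all genes called in these comparisons were 1.53%, 20.7% and 10%, and the same shares apply to the gene groups that follow, with 0.0434% in TC shYEATS2 and 9.23% between the control lines. FN1, fibronectin, the main ligand of alpha-5 beta-1, fell in TC shZZZ3 to 3589 ± 955 CPM (SD, n = 2) from a control level of 8767 ± 1753 (log2 -1.29, edgeR adjusted p 0.0465) and from 9438 ± 1558 in YT shNT to 3049 ± 668 in YT shZZZ3 (log2 -1.63, edgeR adjusted p 0.00461). TNC, tenascin-C, a ligand of alpha-9 beta-1, rose in YT shZZZ3 from 495 ± 34.5 to 1999.6 ± 388 CPM (log2 2.01, edgeR adjusted p 0.00177), the comparison in which ITGA9 rose too. The FN1 call in TC was lost without TC shNT replicate 2 or either TC shZZZ3 library (adjusted p 0.146 to 0.496), and that in YT without YT shNT replicate 2 (adjusted p 0.0608).

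FBLN5, the RGD-bearing elastic fibre protein fibulin-5, fell in YT shYEATS2 (log2 -3.63, edgeR adjusted p 3.39e-05) and in YT shZZZ3 (log2 -2.07, edgeR adjusted p 0.00138). FBLN5 was also chosen by the study from these libraries and, per the study, checked by qRT-PCR. POSTN, periostin, a ligand of alpha-v integrins, fell in YT shYEATS2 (log2 -1.88, edgeR adjusted p 0.00661), where THBS1, thrombospondin-1, rose (log2 1.45, edgeR adjusted p 0.00656). VCAM1, the cell surface ligand of alpha-4 beta-1, fell in TC shZZZ3 (log2 -1.40, edgeR adjusted p 0.0144), and CCN1, a matricellular protein and known YAP and TAZ target, rose there (log2 1.49, edgeR adjusted p 0.0171). The FBLN5 calls held without any 1 library. That of POSTN was lost without YT shNT replicate 1 or either YT shYEATS2 library (adjusted p 0.0635 to 0.0755), that of THBS1 without either YT shNT library or YT shYEATS2 replicate 1 (adjusted p 0.0527 to 0.0624), and those of VCAM1 and CCN1 without TC shNT replicate 2 or either TC shZZZ3 library (adjusted p 0.0563 to 0.206). In TC shYEATS2, 0 of the 13 were called.

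Of 6 tested enzymes that cut or modify osteopontin, 3 rose in YT shYEATS2, where 20.7% of all genes were called, and 0 were called in YT shZZZ3 (10%), TC shZZZ3 (1.53%) and TC shYEATS2 (0.0434%). They were MMP9, a protease that cuts it (2.28 ± 0.135 to 14.9 ± 3.79 CPM, log2 2.66, edgeR adjusted p 0.00210), FAM20C, the secretory kinase that phosphorylates it (log2 1.29, edgeR adjusted p 0.00470), and TGM2, the transglutaminase that cross-links it (log2 1.001, edgeR adjusted p 0.0179). The median over the 6 was 1.09 in YT shYEATS2, beside -0.01 over all genes tested. ACP5, a phosphatase that acts on osteopontin, was higher in the YT controls than in the TC controls (100.2 ± 4.26 against 31.0 ± 11.4 CPM, log2 1.69, edgeR adjusted p 0.00233), and MMP9 was lower (log2 -1.79, edgeR adjusted p 0.0301). In YT shYEATS2 the TGM2 call was lost with any 1 library left out (adjusted p 0.0703 to 0.121) and the FAM20C call without YT shNT replicate 1 (adjusted p 0.0595), and the MMP9 difference between the controls was lost without TC shNT replicate 1 or either YT shNT library (adjusted p 0.102 to 0.182).

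Of 14 further integrin subunits tested, 4 rose and 2 fell in YT shYEATS2 (20.7% of all genes called), 1 rose and 1 fell in YT shZZZ3 (10%), and 0 were called in either TC knock-down (0.0434% and 1.53%). The falls included ITGAX, a leukocyte alpha subunit that also binds osteopontin, from 6.21 ± 0.492 to 0.793 ± 0.173 CPM in YT shYEATS2 (log2 -2.82, edgeR adjusted p 7.33e-05) and 1.07 ± 0.136 CPM in YT shZZZ3 (log2 -2.44, edgeR adjusted p 0.000531). ITGB8, the beta chain of alpha-v beta-8, rose in YT shYEATS2 from 2.93 ± 0.563 to 13.8 ± 0.368 CPM (log2 2.20, edgeR adjusted p 0.0209). The collagen receptor subunit ITGA10 rose in both YT knock-downs (log2 1.98 and 1.07, edgeR adjusted p 0.00119 and 0.0486), and the collagen receptor subunit ITGA2 was higher in the YT than in the TC controls (log2 1.69, edgeR adjusted p 0.00973). The calls of ITGB8, of ITGA10 in YT shZZZ3 and of ITGA2 did not hold with 1 library left out. For ITGB8 any 1 of 4 ended the call (adjusted p 0.0840 to 0.140), for ITGA10 in YT shZZZ3 likewise (0.0619 to 0.275), and for ITGA2 either YT shNT library (0.0655 and 0.0784).

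Inside the cell, integrins signal through focal adhesion kinases and adaptors, of which 19 were tested. In YT shYEATS2, 2 rose and 6 fell (20.7% of all genes called), and in YT shZZZ3, 2 rose and 1 fell (10%). In the TC knock-downs (0.0434% and 1.53%) and between the control lines (9.23%) 0 were called. ILK, integrin-linked kinase, rose in both YT knock-downs (log2 0.98 and 1.10, edgeR adjusted p 0.0329 and 0.0340), and PTK2B, a relative of focal adhesion kinase, fell in both (log2 -0.88 and -1.28, edgeR adjusted p 0.0483 and 0.0162). FERMT3, the kindlin of blood cells, fell in YT shYEATS2 (log2 -1.98, edgeR adjusted p 0.0191), as did TLN2, talin-2 (log2 -0.98, edgeR adjusted p 0.00210). TLN2 kept its call without any 1 library. FERMT3 (adjusted p 0.0737 to 0.128), ILK in YT shYEATS2 (0.0924 to 0.162) and PTK2B in both comparisons (0.0557 to 0.245) lost theirs without any 1 of the 4 libraries, and ILK in YT shZZZ3 without either YT shNT library or YT shZZZ3 replicate 1 (0.152 to 0.183).

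Of 12 tested partners of CD44, 2 rose and 1 fell in YT shYEATS2 and 1 fell in YT shZZZ3, shares near the 20.7% and 10% of all genes, and 0 were called in the TC knock-downs (0.0434% and 1.53% of all genes). ESRP1, a splicing regulator of CD44, went from 14.1 ± 1.02 CPM in YT shNT to 4.57 ± 1.13 in YT shYEATS2 (log2 -1.61, edgeR adjusted p 0.00106) and 2.56 ± 0.327 in YT shZZZ3 (log2 -2.43, edgeR adjusted p 0.000400), and was at 2.14 ± 0.219 CPM in TC shNT. HAS2, a synthase of hyaluronan, and EZR, the cytoskeletal linker ezrin, rose in YT shYEATS2 (log2 0.99 and 0.83, edgeR adjusted p 0.0486 and 0.0242). The ESRP1 calls held without any 1 library, while those of HAS2 and EZR were lost with any 1 of the 4 left out (adjusted p 0.129 to 0.236 and 0.0570 to 0.143).

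The interactions show for which members the difference under a hairpin was not the same in the fusion lines. The level of ZZZ3 also changed unequally. With shZZZ3 it was at 21.9 and 22.7 CPM in TC (controls 25.6 and 60.4) and at 12.6 and 29.6 in YT (controls 49.1 and 71.2). With shYEATS2 it was below both controls in YT and not in TC. The part of these target levels in the interactions was not tested. For the YEATS2 hairpin 3 of 10 members were called (1 higher in YT relative to TC, 2 lower) against 9.37% of all genes, and for the ZZZ3 hairpin 3 of 10 (2 higher, 1 lower) against 4.32%. With the YEATS2 hairpin SPP1 and ITGB3 were thus lower and CD44 higher in YT relative to TC, and with the ZZZ3 hairpin ITGB3 was lower and ITGA8 and ITGA9 higher. The 3 calls for the ZZZ3 hairpin were close to the threshold: leaving out 1 library gave 0 to 2 called members, 0 without either TC shZZZ3 library, either YT shNT library or YT shZZZ3 replicate 2. For the YEATS2 hairpin the SPP1 and CD44 interactions held without any 1 library, and that of ITGB3 was lost without any 1 of the 4 YT libraries (adjusted p 0.0700 to 0.115).

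The genes most like SPP1 were found by the correlation of log2 CPM over the 12 libraries among 13257 genes, and share libraries and depth with it, so no p is given. They were FLT1 (r = 0.93), a receptor of VEGF, ARSB (0.92), a lysosomal sulfatase, KIRREL2 (0.92), UNC5B (0.92), a netrin receptor, LMO2 (0.91), a transcriptional cofactor of blood and endothelial cells, and RIMS3 (0.91). FLT1, for example, had means of 20.9 CPM in the TC controls, 10.6 in TC shZZZ3, 38.1 in the YT controls, 14.0 with YEATS2 knocked down in YT and 18.5 with ZZZ3 knocked down there. Its order of groups matched that of SPP1 at the top and the bottom.

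The genes most unlike SPP1 were SCARA5 (r = -0.95), a scavenger receptor, YWHAQ (-0.95), a 14-3-3 protein, and MYO18A (-0.95), a myosin. SCARA5 was at a mean of 16.6 CPM in TC shZZZ3 and 1.86 CPM in YT shNT. Among the receptors CD44 was the least like SPP1 (r = -0.70, place 12579 of 13257 from the top), and ITGAV was the most like it (r = 0.37, place 3355).

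**Figure D5:**
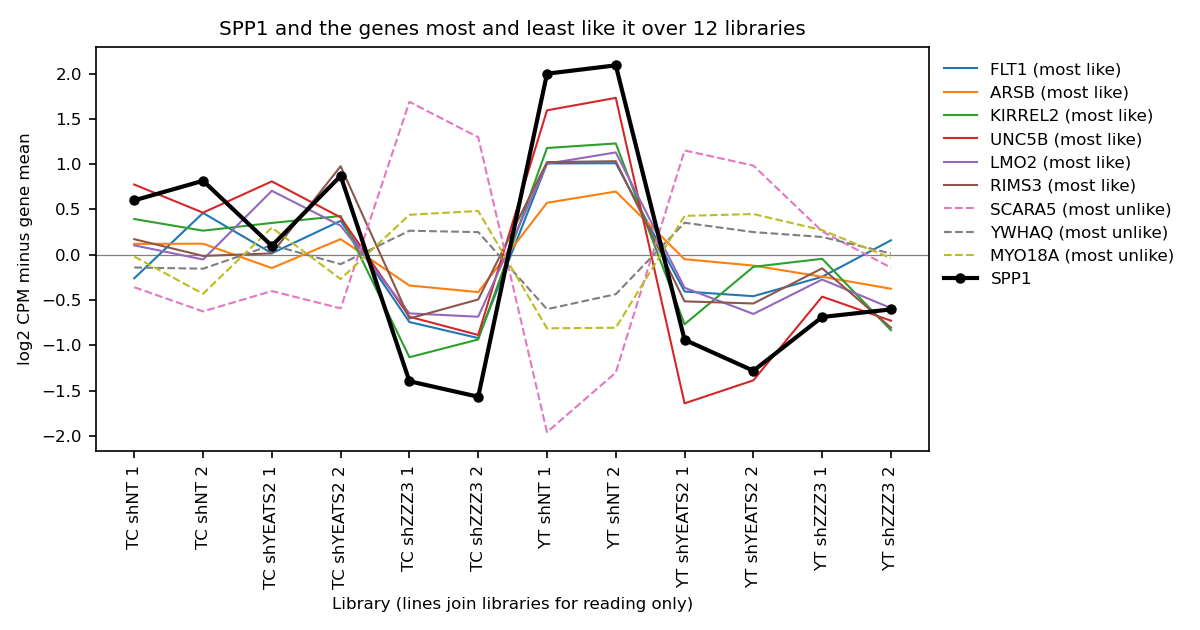
Log2 CPM minus the mean of the gene over the 12 libraries for SPP1 (black), the 6 genes most like it (solid) and the 3 most unlike it (dashed); lines join libraries only to guide the eye. SPP1 and the like genes are high in both YT shNT libraries and low in both TC shZZZ3 libraries, and the dashed genes lie the other way.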

How the data were processed

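RNA was sequenced in 12 libraries of SW872 cells, 2 per group, and groups were taken from the sample labels. Per the labels and the methods of the study, the libraries were stranded and poly(A)-selected, demultiplexed with bcl2fastq and aligned to hg38 with HISAT2 in the bcbio-nextgen pipeline, with Ensembl 78 annotation; Salmon with tximport is described too, and which of these gave the deposited counts, and how strand and multiply mapped reads were handled, is not given in the sources used here. The authors deposited raw counts per gene, not normalized or filtered. The study describes transduced, drug-selected lines and calls the 2 libraries of a group biological duplicates. For its sequencing in triplicate the study describes separate transductions and then stable selection. Whether the duplicates used here were made in that way is not given in the sources used here, and p-values measure the spread between these libraries.

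Genes averaging 5 or more counts per library were normalised by TMM and tested with the edgeR quasi-likelihood test (version 4.0.16, R 4.3.3, robust, prior count 2, two-sided) in 1 fit of all 6 groups, with Benjamini-Hochberg adjustment over 18415 genes, for 7 contrasts. DESeq2 (version 1.42.0), other scalings and filters, removal of a GC trend, a replicate block, fits to the compared groups alone and leaving out each library were alternatives. The 95% intervals come from the same fit. Positions, transcript length and GC content are from GENCODE 44 (GRCh38), in which 99.1% of gene IDs were found. The procedure was tested on simulated data. The 10 genes, the pathway lists and the rules for naming genes (from each list at most 4 called genes per comparison, the largest by log2 fold change, and the 6 most and 3 least like SPP1) were chosen with earlier results of these data known.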

Additional observations from a re-analysis of the deposited data

Results flagged for a closer look

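For 3 of the 10 genes the effect of the YEATS2 hairpin differed between the fusion lines by the interaction term of the edgeR fit (YT minus TC, adjusted over all genes). For SPP1 it was -2.97 (edgeR adjusted p 0.000403): both YT shYEATS2 libraries were below both YT controls, while the TC shYEATS2 libraries overlapped theirs. For CD44 it was 1.50 (edgeR adjusted p 0.00386), with both YT shYEATS2 libraries above their controls and the TC pairs overlapping. For ITGB3 it was -2.02 (edgeR adjusted p 0.0229), and the TC shYEATS2 libraries stood 2.58-fold apart. ZZZ3 was below both controls in YT shYEATS2, at 30.7 to 31.4 CPM, but within the range of its controls in TC shYEATS2, at 35.8 to 47.3. The part of ZZZ3 in these interactions was not tested.

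The effect of the ZZZ3 hairpin differed for ITGB3 (-2.18, edgeR adjusted p 0.0266), ITGA8 (1.38, edgeR adjusted p 0.0417) and ITGA9 (1.92, edgeR adjusted p 0.0453). ITGB3 was below the controls in both YT shZZZ3 libraries and above them in both TC shZZZ3 libraries, and ITGA9 was the other way round. ITGA8 was above the YT controls in both YT shZZZ3 libraries and overlapped the controls in TC. ZZZ3 itself was at 21.9 and 22.7 CPM in TC shZZZ3 (controls 25.6 and 60.4) and at 12.6 and 29.6 in YT shZZZ3 (controls 49.1 and 71.2). The part of this unequal knock-down in these interactions was not tested.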

How the results depend on the processing

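Among the results that kept direction and call under every alternative run were the 3 falls of SPP1 and the YEATS2 hairpin interactions of SPP1 and CD44. Also among them were the CD44 rise and ITGAX fall in YT shYEATS2, the ITGA8 rise in YT shZZZ3, and the ITGB3 and ITGA9 differences between the fusion lines. Over the single genes named, 1192 of the recomputed values kept direction and call, 154 lost a call, 49 gained one and 30 changed sign, and each sign change was of a difference that was not called. Where a value or call changed, the cause was not tested. With 2 libraries per group, leaving out 1 leaves a lone library that is assumed to vary like the other groups, and differences of the size of a gap within a pair cannot be settled.

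The share of all genes called moved with most of these settings and is given in parentheses. Called members of 10 went from 2 to 1 in TC shZZZ3 (1.53% to 0.848%) and from 5 to 3 between the control lines (9.23% to 5.45%) in fits to the compared groups alone, and to 1 and between 2 and 5 with 1 library left out. In YT shYEATS2 the 3 members (20.7%) became 5 without a count filter (14.8%), 6 with either GC trend removed (31.7%), 7 with the GC trend removed and the replicate block (35.9%), and 9 in the compared groups alone (48.6%). In YT shZZZ3 the 3 members (10%) became 5 with DESeq2 (13.0%), without a filter (8.13%) or in the compared groups alone (7.61%), and 7 with either GC trend removed (21.4%) or with block and GC trend (25.4%). For the YEATS2 hairpin interaction 3 members (9.37%) became 5 with the block and GC trend (24.4%), and 2 to 5 with 1 library left out. For the ZZZ3 hairpin interaction 3 (4.32%) became 1 with library totals (4.15%), 5 with the GC trend removed (11.2%) or with block and GC trend (14.5%), and 0 to 2 with 1 library left out. The trend on the GC content of all annotated exons was chosen after seeing the data.

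With 1 library left out, the difference between the control lines ranged from 1.20 to 1.42 for SPP1 and from -0.11 to 1.13 for ITGAV. In TC shYEATS2 the values ranged from -0.64 to 0.14 for SPP1, -0.22 to 0.032 for CD44, -0.70 to 0.55 for ITGAV, -0.38 to 0.46 for ITGB1, -0.22 to 1.14 for ITGB3, -1.56 to 0.39 for ITGA4, -0.045 to 0.53 for ITGA5, -0.40 to 0.083 for ITGA8 and -0.59 to 0.73 for ITGA9. In TC shZZZ3 they ranged from -0.70 to 0.54 for ITGAV, -0.20 to 0.63 for ITGB1, -0.13 to 0.31 for ITGB5, -0.99 to 0.037 for ITGA4 and -0.16 to 0.41 for ITGA5, and in YT shZZZ3 from -0.81 to 0.24 for ITGAV and -0.49 to 0.26 for ITGB1. ITGB1 also changed sign in TC shYEATS2 with the GC trend removed (0.067), with that of all exons (0.045), with the replicate block (0.0092) and with block and GC trend (0.065). With the GC trend removed, without and with the block, ITGB1 in YT was at 0.061 and 0.061 for the YEATS2 hairpin and at 0.030 and 0.026 for the ZZZ3 hairpin. ITGAV in TC shZZZ3 was at 0.0051 with the trend of all exons removed.

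Libraries with the same replicate number deviated together in some groups and not in others: of 15 correlations between groups of deviations from the group mean, 7 were above 0.1 (from -0.44 to 0.90, median 0.03), so the numbers were not taken to pair the libraries. With the replicate block alone, the members called were 0 in TC shYEATS2 (0.152% of all genes), 2 in TC shZZZ3 (1.92%), 4 in YT shYEATS2 (25.3%), 4 in YT shZZZ3 (12.4%) and 5 between the control lines (12.1%), and 3 and 4 in the YEATS2 and ZZZ3 hairpin interactions (11.8% and 5.54%).

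Counts over all genes moved too. In TC shYEATS2 the 8 calls became 117 with DESeq2, 213 without a filter, 67 with the GC trend removed, 28 with the block, and 2 to 77 with 1 library left out. In TC shZZZ3 the 281 calls became 532 with DESeq2, 744 without a filter, 721 with the GC trend removed and 50 to 151 with 1 library left out. In YT shYEATS2 the 3821 calls became 5843 with the GC trend removed, 8784 in the compared groups alone and 1516 to 1644 with 1 library left out, and in YT shZZZ3 the 1846 calls became 3933 with the GC trend removed and 501 to 1549.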
